A study of Mus musculus with 5 samples.

Results

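The nuclear-encoded genes of oxidative phosphorylation were followed across 4 sorted progenitor populations of mouse bone marrow. The members were the genes whose symbols begin with Nduf followed by a, b, c, s or v and a digit, with Uqcr, with Atp5, or with Cox followed by a digit between 4 and 8, together with Sdha, Sdhb, Sdhc and Sdhd. This rule took 84 of the 27998 genes in the deposited tables and used no measured value. By symbol, 37 belong to complex I, 4 to complex II, 8 to complex III, 18 to complex IV and 17 to complex V. All 84 are protein-coding in GENCODE M21 and lie on 19 chromosomes.

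The cells were sorted from bone marrow of healthy C57BL/6 mice, wild type by their label, and the labels give no treatment, age or number of animals. Megakaryocyte/erythroid progenitors (MEP, Lin-KIT+SCA1-CD34-CD16/32-), granulocyte/monocyte progenitors (GMP, Lin-KIT+SCA1-CD34+CD16/32+), common myeloid progenitors (CMP, Lin-KIT+SCA1-CD34+CD16/32-) and the stem and multipotent progenitor gate (LSK, Lin-SCA1+KIT+) were each profiled with the 10x Genomics 3' assay, which counts unique molecular identifiers (UMIs) per gene and cell. There was 1 library for each gate, because the 2 samples labelled CMP held identical matrices and were counted as 1 sample. Gate and library therefore cannot be told apart, no test between gates was possible, and every interval below covers counting error only.

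Oxidative phosphorylation takes place at the inner mitochondrial membrane. Complex I oxidizes NADH and complex II oxidizes succinate, both pass electrons through ubiquinone to complex III, cytochrome c carries them to complex IV, and complex V, the ATP synthase, uses the resulting proton gradient to make ATP. Complexes I, III, IV and V hold subunits encoded in the mitochondrial genome as well as nuclear-encoded ones, so both genomes have to be expressed to build them. Blood stem cells are known for a quiet, largely glycolytic metabolism, and proliferating erythroid and myeloid progenitors for higher respiration and, in the erythroid line, for heme synthesis inside mitochondria.

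After filtering, the libraries held 6284 MEP, 8027 GMP, 3713 CMP and 10870 LSK cells, with 80273121, 73362645, 26919088 and 75167959 UMIs. Median UMIs per cell were 12578 in MEP, 9100 in GMP, 6904 in CMP and 5991.5 in LSK. The CMP files held 3738 barcodes, against 12185 cells stated for that gate. The unit of level is CPM, the UMIs of a gene scaled to a fixed library total of 1000000 UMIs, and a count of 0 in a library allows a level of up to 0.0374 CPM in MEP, 0.0409 in GMP, 0.111 in CMP and 0.0399 in LSK (3 UMIs). Each gate was checked against marker genes. The 8 erythroid markers summed to 5823 CPM in MEP, 5.49 in GMP, 119.7 in CMP and 79.5 in LSK. The 5 granulocyte-monocyte markers summed to 13.5, 28909, 6082 and 705 CPM in the same order, and the 6 stem cell markers to 3.40, 6.26, 23.6 and 561 CPM. The 6 megakaryocyte markers were highest outside the MEP gate, with 134 CPM in MEP, 12.2 in GMP, 419 in CMP and 157 in LSK. Among other cell types, the 3 T and NK cell markers summed to 44.3 CPM in MEP, 1205 in GMP, 423 in CMP and 289 in LSK. Only 1 of the 3 reached 10 CPM in each library, so 1 gene carried most of each sum. Cd3e was at 0 in MEP, GMP and CMP. The 4 dendritic cell markers summed to 72.8, 48.8, 468 and 564 CPM in the same order. The 3 B cell markers summed to at most 2.33 CPM and the 3 macrophage markers to at most 4.03 CPM in any library. The part of such cells in the results was not tested. Between 36 and 130 cell barcodes were shared by any pair of libraries, at most 1.62% of the smaller library. Another gene overlaps 12 members on the same strand and 29 on the other strand, and their reads may be shared with it. Of those named below these are Atp5a1, Atp5b, Atp5c1, Atp5g2, Atp5j, Atp5l, Atp5o, Cox4i1, Cox5a, Cox6a2, Cox6c, Cox7c, Ndufa3, Ndufa4l2, Ndufa11, Ndufb5, Ndufb6, Ndufb9, Ndufs1, Ndufs3, Ndufv2, Sdha, Uqcrb, Uqcrc2 and Uqcrh.

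The 84 members took more of the RNA in every committed gate than in LSK. Their summed UMIs made up 3.77% of all UMIs in MEP, 3.66% in GMP, 3.24% in CMP and 2.54% in LSK. On the log2 scale the summed level was 0.57 higher in MEP than in LSK (95% interval 0.57 to 0.57), 0.53 higher in GMP (0.52 to 0.53) and 0.35 higher in CMP (0.35 to 0.35). These 3 ratios share the LSK library. MEP and GMP stood close together, with a ratio of 0.04 for MEP over GMP (0.04 to 0.05). LSK had the lowest level for 61 of the 75 members that reached 50 CPM in some library. MEP had the highest level for 38 of them, GMP for 33, CMP for 3 (Ndufa4, Ndufa6 and Ndufs8) and LSK for Cox7a2l alone. The same counts were not made over all genes, so they are not read as particular to the members.

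All 5 complexes shared the direction against LSK, with unequal size. The largest MEP over LSK ratio of summed UMIs was that of complex II, the succinate dehydrogenase, at 0.79 on the log2 scale. Complex V followed at 0.66, complex IV at 0.54, complex III at 0.52 and complex I at 0.51. In GMP over LSK the order was different, with complex I at 0.57, complex IV at 0.53, complex V at 0.51, complex III at 0.46 and complex II at 0.43. In CMP over LSK all lay between 0.26 for complex III and 0.39 for complex I. Complex I was the only complex with a summed level below 0 in MEP over GMP, at -0.06 (-0.07 to -0.06), while complex II was at 0.36 and complex V at 0.15.

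**Figure D1:**
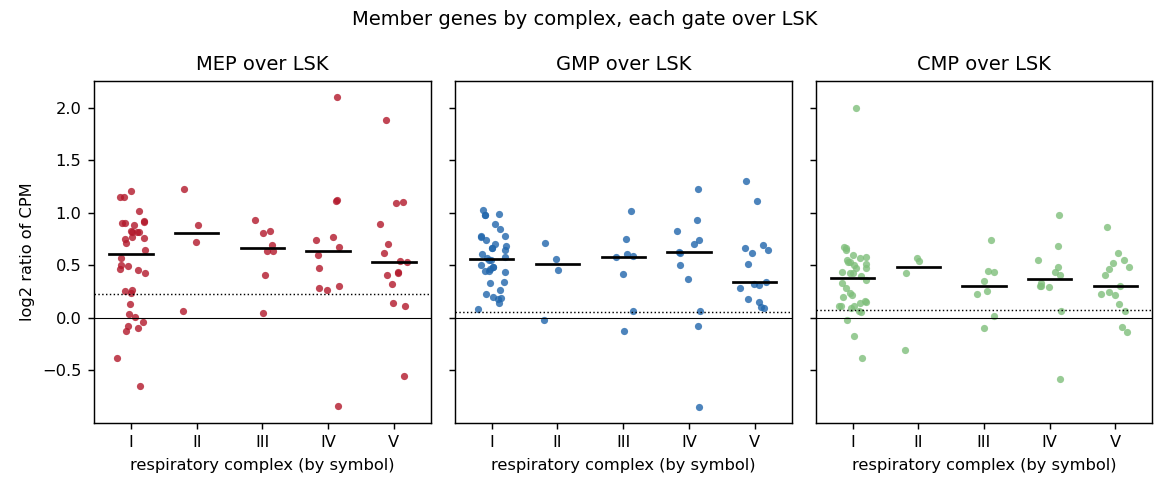
Log2 ratio of CPM for each member, in MEP, GMP and CMP over LSK (panels), by complex on the horizontal axis. Points are the 75 members that reached 50 CPM in some library, bars are medians, the dotted line is the median of all genes averaging at least 50 CPM over the pair, and most points lie above 0 in all 3 panels, with Cox6b2 (2.11) and Atp5g1 (1.88) at the top in MEP and Ndufs8 (1.99) at the top in CMP.

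The upward direction was shared by most members, but few differed by much. Among genes averaging at least 50 CPM over the pair of libraries, 67 of 75 members (89.3%) were above 0 in MEP over LSK, against 61.5% of all 2824 genes. The figures were 70 of 74 (94.6%) in GMP over LSK against 53.0% of all genes, and 66 of 74 (89.2%) in CMP over LSK against 56.3%. The median member stood at 0.63, 0.56 and 0.38 in MEP, GMP and CMP over LSK, and the median of all such genes at 0.23, 0.06 and 0.07. In MEP over GMP 39 of 75 members (52%) were above 0, against 63.8% of all genes, with medians of 0.03 and 0.20.

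A difference of 2-fold or more was called where the gene reached 50 CPM in the higher library, a rule that stands in for a test. In MEP over LSK 11 of 75 members (14.7%) were called higher in MEP, and by the same rule 13.5% of all 3350 genes were. In GMP over LSK 5 of 74 members (6.76%) were called higher in GMP, against a background of 7.49%. In CMP over LSK 1 of 74 was (1.35%; background 2.72%), and in MEP over GMP 1 of 75 was called higher in MEP (1.33%; background 12.1%). At 2-fold the shares for MEP and GMP over LSK were therefore near that of all genes. No member was called 2-fold lower in MEP or GMP or CMP than in LSK, or in MEP than in GMP, where the backgrounds were 16.4%, 13.3%, 6.12% and 12.2%.

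At 1.5-fold the members stood apart more. In MEP over LSK 40 members were called higher and 2 lower in MEP (Ndufa3 and Cox7a2l), or 53.3% and 2.67%, against backgrounds of 29.7% and 24.0%. In GMP over LSK 34 were higher and 1 lower in GMP (Cox7a2l), or 45.9% and 1.35%, against 18.8% and 23.1%. In CMP over LSK 10 were higher (13.5%, against a background of 10.6%) and 0 lower in CMP (background 14.6%). In MEP over GMP 6 were higher and 3 lower in MEP, or 8% and 4%, against 26.6% and 17.4%. The higher ones were Cox6b2, Ndufb9, Ndufs7, Ndufs1, Uqcrc2 and Atp5b, and the lower ones Ndufs8, Ndufa3 and Atp5e. With TMM or median-of-ratios scaling no member was called lower than in LSK at 1.5-fold, and in CMP over LSK 46 of 74 (62.2%) were higher with TMM, against 33.4% of all genes.

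These ratios are relative to the RNA total of each library. Over genes with a mean of 1 CPM or more the median of all genes was -0.36 in MEP, -0.44 in GMP and -0.33 in CMP over LSK, and the median member lay 0.97, 0.99 and 0.69 above it. Trimmed-mean (TMM) and median-of-ratios scaling, which centre the typical gene, raised every ratio to LSK by 0.44 and 0.52 in MEP, 0.45 and 0.54 in GMP and 0.31 and 0.38 in CMP, and left the distance of members to all genes as it was. With TMM factors 41 of 75 members (54.7%) were 2-fold higher in MEP than in LSK, against 33.3% of all genes, and 38 of 75 (50.7%) in GMP, against 21.9%. In CMP 4 of 74 (5.41%) were, against 8.32%. Of the 8, 4 and 8 members of 50 CPM or more below 0 in MEP, GMP and CMP over LSK, 5, 3 and 6 turned above 0 with either scaling. Those that remained below LSK were Cox7a2l in all 3 gates, Ndufa3 in MEP and CMP, and Atp5e in MEP. MEP over GMP moved by at most -0.02, which took Cox7a2l, at 0.01, below 0.

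Complex I is the largest complex and takes electrons from NADH. Its 7 nuclear-encoded core subunits, which carry the flavin, the iron-sulfur clusters and the quinone site, were not alike. Ndufs7, at the quinone end, had 453 CPM in MEP, 289 in GMP, 222 in CMP and 204 in LSK, 1.15 higher in MEP than in LSK on the log2 scale and past the 2-fold rule, though at 0.97 in cells without an Mki67 or Top2a UMI. Ndufv1, which binds NADH, had 164 CPM in MEP, 112 in GMP, 96.5 in CMP and 93.1 in LSK. Ndufs1, the largest subunit, had 73.0 CPM in MEP, 46.9 in GMP, 43.4 in CMP and 41.5 in LSK. For Ndufv1 and Ndufs1, GMP and CMP lay within 0.27 of LSK on the log2 scale, so that by library total mainly MEP stood apart. Ndufv2 and Ndufs3 followed with MEP over LSK ratios of 0.88 and 0.75. Ndufs8, also a core subunit, had its own order and is described further on.

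Among the accessory subunits of complex I, which surround the core and stabilize it, Ndufb9, Ndufb6 and Ndufb10 passed the 2-fold rule in MEP over LSK. Ndufb9 had 707 CPM in MEP, 448 in GMP, 354 in CMP and 306 in LSK, and, among complex I members that reached 50 CPM, had the largest ratio in MEP over LSK (1.21) and in MEP over GMP (0.66). Ndufb6 had 371 CPM in MEP, 329 in GMP, 261 in CMP and 168 in LSK. Ndufb10 had 460.3 CPM in MEP, 407 in GMP, 299.6 in CMP and 227 in LSK, and its ratio of 1.02 to LSK was at the edge of the rule. In cells without an Mki67 or Top2a UMI, Ndufb9 was at 0.93 and Ndufb10 at 0.81, below the rule. These genes were graded, with MEP highest and LSK lowest. Ndufb5 instead was highest in GMP, with 462 CPM in MEP, 504 in GMP, 394 in CMP and 248 in LSK, and passed the rule in GMP over LSK (1.03), though at 0.94 with the total taken without ribosomal protein and mitochondrially encoded genes. Ndufa3 ran the other way in MEP, with 121 CPM in MEP, 216 in GMP, 146 in CMP and 190.3 in LSK. It was 1.5-fold or more lower in MEP than in either LSK (-0.65) or GMP (-0.84). All 36 complex I members averaging at least 1 CPM were above 0 in GMP over LSK, the lowest being Ndufa6 at 0.08.

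Complex II is entirely nuclear-encoded and also serves in the tricarboxylic acid cycle. Sdhd, a membrane anchor, had 333 CPM in MEP, 232 in GMP, 191 in CMP and 142 in LSK, and passed the 2-fold rule in MEP over LSK (1.23). Sdhb, the iron-sulfur subunit, had 391 CPM in MEP, 291 in GMP, 308 in CMP and 212 in LSK. Sdhc, the second anchor, had 152 CPM in MEP, 136 in GMP, 137 in CMP and 92.1 in LSK. Sdha, the flavoprotein, differed little, with 162 CPM in MEP, 153 in GMP, 126 in CMP and 155 in LSK. Its log2 ratios to LSK were 0.06 in MEP (0.03 to 0.10), -0.02 in GMP (-0.06 to 0.02) and -0.30 in CMP (-0.36 to -0.25), the last 2 above 0 with either other scaling.

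In complex III the core proteins Uqcrc1 and Uqcrc2 and the Rieske iron-sulfur protein Uqcrfs1 were highest in MEP. Uqcrc1 had 385 CPM in MEP, 299.9 in GMP, 236 in CMP and 201 in LSK. Uqcrfs1 had 396 CPM in MEP, 302 in GMP, 288 in CMP and 226 in LSK. Uqcrc2 had 299 CPM in MEP against 193 in GMP, 188 in CMP and 185 in LSK, so that by library total only MEP stood apart. TMM scaling raises its ratios to LSK by 0.45 in GMP and 0.31 in CMP. The small subunit Uqcrq was instead highest in GMP, with 399 CPM in MEP, 456 in GMP, 375 in CMP and 225 in LSK, and it passed the 2-fold rule in GMP over LSK (1.02), though at 0.94 with that reduced total. Uqcrb, which lies near the ubiquinone site, had the lowest MEP over GMP ratio of the complex (-0.34). Uqcrh, the hinge protein, was the most even by library total, with 779 CPM in MEP, 691 in GMP, 707 in CMP and 754 in LSK.

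Complex IV, cytochrome c oxidase, passes electrons to oxygen. Its nuclear-encoded subunit Cox5a lay between 1.97-fold and 2.34-fold higher in the committed gates than in LSK, with 1020.4 CPM in MEP, 1096 in GMP, 925 in CMP and 469 in LSK. Its log2 ratios to LSK were 1.12, 1.22 and 0.98 in MEP, GMP and CMP. Cox6a1 had 811 CPM in MEP, 717 in GMP, 603 in CMP and 376 in LSK and passed the rule in MEP over LSK (1.11). Cox5b was smaller in range, with 784 CPM in MEP, 747 in GMP, 621 in CMP and 459.6 in LSK. Cox4i1, the ubiquitous form of subunit 4, had 1356 CPM in MEP, 1377 in GMP, 1103 in CMP and 894 in LSK. By library total Cox7c differed little between GMP, CMP and LSK, with 972 CPM in MEP, 826 in GMP, 825 in CMP and 789.8 in LSK. Cox8a and Cox7b, the common forms of subunits 8 and 7b, were 0.27 and 0.67 higher in MEP than in LSK. Among complex IV members of 50 CPM or more, Cox6c had the lowest MEP over GMP ratio, at -0.23.

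Complex V uses the proton gradient through a membrane ring of c subunits and a catalytic head of alpha, beta and gamma subunits. Atp5b, the catalytic beta subunit, had 1471 CPM in MEP, 967 in GMP, 932 in CMP and 795 in LSK, with a log2 ratio of 0.89 in MEP over LSK and 0.60 in MEP over GMP. Atp5a1, the alpha subunit, differed less, with 680.2 CPM in MEP, 579 in GMP, 609.6 in CMP and 513 in LSK. Atp5c1, the gamma subunit, had 581, 536, 532 and 431 CPM in the same order. Atp5o, in the stalk that links head and ring, had 756 CPM in MEP, 767 in GMP, 546 in CMP and 355 in LSK, and passed the 2-fold rule in both MEP (1.09) and GMP (1.11) over LSK. Atp5e, the small epsilon subunit, had the lowest MEP over LSK ratio of the complex V members that reached 50 CPM, with 313 CPM in MEP, 489.6 in GMP, 479 in CMP and 458 in LSK. Among the same members the lowest in CMP over LSK was Atp5k, a small membrane subunit, at -0.13, and above 0 with either other scaling.

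**Figure D2:**
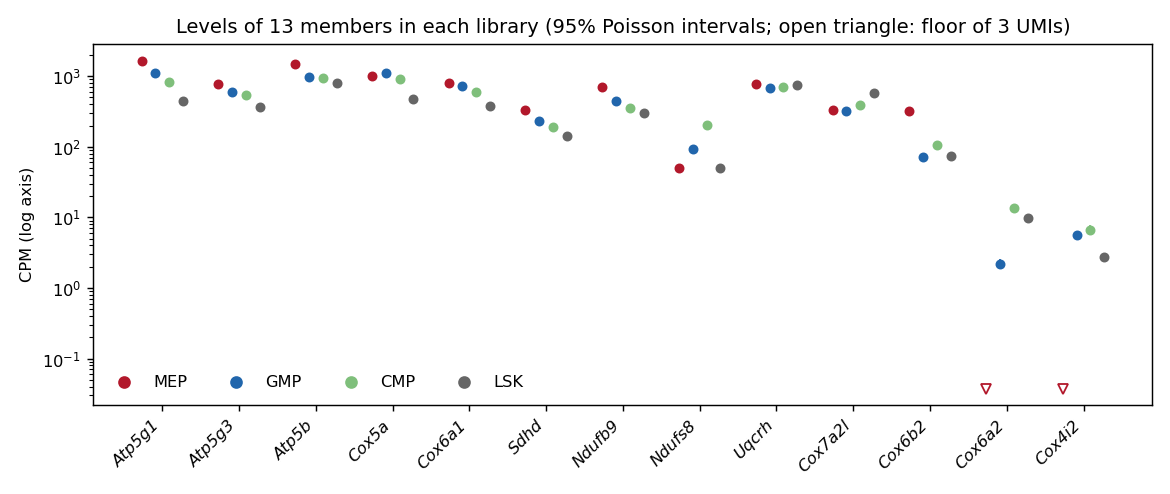
CPM on a log axis for 13 members (horizontal axis) in MEP, GMP, CMP and LSK, left to right within each gene, with 95% Poisson intervals mostly smaller than the symbols. Open triangles mark the level that 3 UMIs would give in MEP, where Cox6a2 had 1 UMI and Cox4i2 had 0. Atp5g1 has 1668 CPM in MEP, 1116 in GMP, 823 in CMP and 452 in LSK.

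Several subunits have alternative isoforms encoded by separate genes, and their shares differed between gates. Each 3' UMI counts 1 transcript whatever its length, so UMIs of isoforms were summed directly. Subunit c of the ATP synthase has 3 genes, Atp5g1, Atp5g2 and Atp5g3, that encode the same mature protein. Atp5g1 (chr11:96068852-96075670, minus strand) had 1668 CPM in MEP, 1116 in GMP, 823 in CMP and 452 in LSK. The 95% intervals of these levels were 1659 to 1677, 1108 to 1123, 812 to 834 and 447 to 457, so each gate was separate beyond counting error. The ratio to LSK was 3.69-fold in MEP, 2.47-fold in GMP and 1.82-fold in CMP. Atp5g3 passed the 2-fold rule in MEP over LSK only (1.10 on the log2 scale), with 782 CPM in MEP, 589.6 in GMP, 534 in CMP and 365 in LSK. Atp5g2 had 855, 702, 689 and 631 CPM in the same order. As a share of the UMIs of the 3 genes, Atp5g1 made up 50.5% in MEP (Clopper-Pearson interval 50.3 to 50.7), 46.3% in GMP, 40.2% in CMP and 31.2% in LSK (30.9 to 31.5). Atp5g2 was the leading gene in LSK, with 43.6% there against 25.9% in MEP, 29.2% in GMP and 33.7% in CMP.

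Cox6b2, an isoform of the small subunit 6b best known from testis, had the largest ratio in MEP over LSK among the 75 members that reached 50 CPM. It had 324 CPM in MEP, 71.1 in GMP, 105 in CMP and 75.2 in LSK. The MEP library thus lay 4.30-fold above LSK and 4.55-fold above GMP (log2 2.11, 2.06 to 2.15, and 2.19, 2.14 to 2.23), while GMP over LSK was -0.08 (-0.14 to -0.03), and above 0 with either other scaling. Of the UMIs of Cox6b1 and Cox6b2 together, Cox6b2 made up 31.2% in MEP (30.9 to 31.6), 8.25% in GMP, 14.2% in CMP and 12.8% in LSK. A Cox6b2 UMI was found in 90.3% of MEP cells, 43.7% of GMP, 48.6% of CMP and 33.5% of LSK cells. With every cell thinned to 2000 UMIs, these shares were 45.1%, 13.5%, 20.1% and 12.7%. Free RNA can add to such shares. In the LSK barcodes with 1 to 100 UMIs, far below the level of a cell, Cox6b2 was at 91.5 CPM, against 75.2 CPM in LSK cells. The source of this free RNA was not tested, so expression in single LSK cells and background cannot be told apart. Cells of each library were also grouped by expression into clusters, called by number and leading genes. Over the clusters of 100 or more cells its level was 114 to 347 CPM in MEP, 52.8 to 154 in GMP, 75.2 to 156 in CMP and 52.0 to 127 in LSK. The MEP cluster at 114 CPM was cluster 7, led by Gucy1a3, Esam, Mmrn1 and Pf4, and each of the other 6 MEP clusters of that size lay above every cluster of the other gates.

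The isoforms known from striated muscle or lung were low everywhere, and near 0 in MEP. Cox6a2, the heart and skeletal muscle form of subunit 6a, had 1 UMI in the whole MEP library, against 2.17 CPM in GMP, 13.4 in CMP and 9.68 in LSK. The observed log2 ratio of MEP to LSK was -9.60 with a counting interval of -14.91 to -7.12. Cox6a2 made up 2.17% of the UMIs of Cox6a1 and Cox6a2 in CMP and 2.51% in LSK, and 0.302% in GMP. Within LSK it had 0 UMIs in cluster 8, led by Gp1bb and Pf4, 0.669 CPM in cluster 1, led by S100a8, Procr and Klf9, and 40.6 CPM in cluster 5, led by Ctsg, Irf8, Cst7 and Dntt. In CMP it had 0 UMIs in cluster 7, led by Pf4 and Ppbp, 0.868 CPM in cluster 3, led by Csrp3 and Fcer1a, and 27.9 CPM in cluster 4, led by Dntt and Flt3. In the LSK barcodes with 1 to 100 UMIs Cox6a2 was at 8.48 CPM. Cox6a2 overlaps Itgad on the other strand.

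Cox4i2, the form of subunit 4 known from lung and hypoxic cells, had 0 UMIs in MEP, 5.62 CPM in GMP, 6.72 in CMP and 2.77 in LSK. Its level in MEP was at least 74.0-fold lower than in LSK and at least 150.3-fold lower than in GMP, with the floor of 3 UMIs in the MEP library. A UMI was found in 0 of 6284 MEP cells, which allows a share of cells with a UMI of up to 0.0477% and does not limit the share that express the gene. Cells with a UMI made up 4.78% of GMP, 4.42% of CMP and 1.77% of LSK cells. In LSK barcodes it was at 0.848 CPM in those with 1 to 100 UMIs and at 2.58 CPM in all below the level of a cell. LSK cells had 2.77 CPM, and the part of free RNA in the LSK share was not tested. In GMP it was 11.01 CPM in cluster 4, led by Ccne2 and Pld4, and 0.362 in cluster 2, led by Pglyrp1. In CMP the highest cluster was the one led by Ly6c2 and Slpi, at 14.7 CPM, and in LSK the one led by Cldn5 and Vwf, at 12.7 CPM. Cox7a1, another muscle isoform, had 0.262 CPM in MEP, 1.23 in GMP, 1.26 in CMP and 1.45 in LSK. Cox8b had 0 UMIs in all 4 libraries, Cox8c had 4 in MEP and 0 in the others, Cox7b2 had 0, 1, 0 and 6 in MEP, GMP, CMP and LSK, and Ndufa4l2 had 1 in LSK and 0 in the others. With Atp5s and Atp5sl, whose products are not ATP synthase subunits, these 7 make up the 9 members that never reached 50 CPM. Atp5sl had 12.4 CPM in MEP, 16.6 in GMP, 24.2 in CMP and 28.1 in LSK, and Atp5s had 18.5, 11.6, 11.6 and 11.8 CPM.

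The product of Cox7a2l (chr17:83501918-83517330, minus strand) has been described as a factor joining complexes III and IV into supercomplexes. Whether it does so in mice of this strain was not tested. Among the 75 members that reached 50 CPM, Cox7a2l was the only one highest in LSK. It had 328 CPM in MEP, 326 in GMP, 394 in CMP and 588 in LSK, with log2 ratios of -0.84, -0.85 and -0.58. Its 1.5-fold calls in MEP and GMP were lost with TMM or median-of-ratios scaling, which kept the direction. Its related subunit Cox7a2 was instead lowest in LSK, with 593 CPM in MEP, 631 in GMP, 521 in CMP and 356 in LSK. Of the UMIs of Cox7a1, Cox7a2 and Cox7a2l, Cox7a2l made up 35.6% in MEP, 34.0% in GMP and 43.0% in CMP, against 62.2% in LSK (61.8 to 62.5). Within LSK it ranged over clusters between 416 CPM in cluster 4, led by Esco2, Pbk and Tk1, and 817 in cluster 7, led by Cldn5, Sult1a1 and Vwf. In MEP it was likewise highest (516 CPM) in cluster 7, the cluster with the lowest summed level of the members. Cox7a2l was the member with the lowest ratio of cells with an Mki67 or Top2a UMI over cells without in MEP (-0.35), CMP (-0.29) and LSK (-0.38).

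Ndufs8 (chr19:3908863-3912774, minus strand), a core subunit that carries iron-sulfur clusters next to the quinone site, was the member that set CMP apart. It had 50.6 CPM in MEP, 93.3 in GMP, 201 in CMP and 50.4 in LSK. CMP was 3.98-fold above LSK (log2 1.99, 1.93 to 2.05), GMP was 1.85-fold above LSK, and MEP did not differ from LSK beyond counting error by library total (0.01, -0.06 to 0.07). Every CMP cluster of 100 or more cells was at 121 to 240 CPM. The clusters of MEP were at 44.8 to 54.7 CPM, those of GMP at 63.0 to 105 and those of LSK at 29.1 to 59.7, so that no CMP cluster overlapped a cluster of another gate. A Ndufs8 UMI was found in 44.7% of MEP, 54.2% of GMP, 68.8% of CMP and 27.8% of LSK cells, and after thinning to 2000 UMIs in 9.52%, 16.3%, 31.5% and 9.08%. In the LSK barcodes with 1 to 100 UMIs it was at 37.3 CPM. The difference ran through all CMP clusters of that size, and gate and library cannot be told apart for it. Ndufa4, placed in complex I by its symbol but known as a complex IV subunit, was also highest in CMP, with 1063 CPM in MEP, 1529.6 in GMP, 1624 in CMP and 1121 in LSK. Within LSK it ranged between 534 CPM in cluster 7 and 1556 in cluster 4.

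The sequences before the start of Cox6b2 and Ndufs8 are shown because these genes had the largest ratios in MEP over LSK and in CMP over LSK. They are the 250 bases before the RefSeq start on GRCm38.p6, 5′ to 3′ on the gene's strand, at chr7:4753095-4753344 and chr19:3912775-3913024, both on the minus strand. Motifs linked to mitochondrial genes were searched by exact letters on both strands: the nuclear respiratory factor 1 site GCGCATGCG, the GABPA/ETS site CCGGAAGT and the YY1 site AAGATGGC. Neither window holds any of them.
Cox6b2: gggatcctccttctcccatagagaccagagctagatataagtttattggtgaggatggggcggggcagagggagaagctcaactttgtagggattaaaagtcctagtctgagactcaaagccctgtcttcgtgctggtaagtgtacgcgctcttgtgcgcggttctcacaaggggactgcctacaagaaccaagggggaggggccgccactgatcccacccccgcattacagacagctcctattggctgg
Ndufs8: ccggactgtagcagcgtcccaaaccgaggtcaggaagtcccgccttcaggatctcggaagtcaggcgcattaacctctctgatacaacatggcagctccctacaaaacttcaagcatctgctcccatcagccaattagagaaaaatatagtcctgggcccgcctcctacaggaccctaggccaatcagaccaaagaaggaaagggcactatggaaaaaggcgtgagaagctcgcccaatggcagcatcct

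RefSeq held 71 promoter windows for 66 of the 84 members. The nuclear respiratory factor 1 letters were in 6 of them (8.45%), those of Atp5g2, Atp5k, Atp5l, Cox6a1, Ndufa11 and Ndufa8, against 1.45% of all 32851 windows of the same length. The GABPA/ETS letters were in 3 (4.23%, against 2.88%), those of Atp5h, Uqcr11 and Uqcrh, and the YY1 letters in 1 (1.41%, against 1.56%), that of Atp5j. No window held more than 1 of the motifs. The median GC content was 56% in the members' windows and 52.4% in all. The stretches around the nuclear respiratory factor 1 letters of 5 members follow because they share a run of letters, given in capitals; where the run is 10 letters long, it reads as the motif on both strands.
Atp5g2: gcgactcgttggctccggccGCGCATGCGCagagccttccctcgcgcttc
Atp5k: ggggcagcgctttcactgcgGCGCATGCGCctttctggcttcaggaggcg
Atp5l: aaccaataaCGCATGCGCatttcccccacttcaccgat
Cox6a1: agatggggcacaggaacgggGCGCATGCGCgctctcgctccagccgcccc
Ndufa8: cgcttgcgcgtcgctggagaCGCATGCGC
These stretches lie at chr15:102671060-102671109, chr5:108434420-108434469, chr9:44920955-44920992, chr5:115349091-115349140 and chr2:36049339-36049367, in the order of the lines, all on the minus strand. The capitals end 33, 41, 233, 153 and 1 bases before the start. The 5 genes differed in expression ratio: in MEP over LSK Cox6a1 was at 1.11, Ndufa8 at 0.82, Atp5g2 at 0.44, Atp5l at 0.32 and Atp5k at 0.12 on the log2 scale. A match of letters is a description of the sequence and not a binding site.

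Per cell, the members' share of UMIs was broad and shifted between gates. The median cell had 3.73% of its UMIs in members in MEP, 3.64% in GMP, 3.13% in CMP and 2.40% in LSK. The 5th and 95th percentiles were 2.68% and 4.28% in MEP, 2.85% and 4.27% in GMP, 2.13% and 3.98% in CMP, and 1.79% and 3.18% in LSK. The ranges therefore overlapped, with the LSK 95th percentile below the MEP and GMP medians. After thinning every cell to 2000 UMIs, which kept 3677 of 3713 CMP cells and all cells of the other gates, the medians were 3.65%, 3.60%, 3.10% and 2.40%.

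Within each library the share differed between clusters of cells, which were found without the members, mitochondrially encoded genes and ribosomal protein genes. Among clusters of 100 or more cells it ranged in MEP between 2.93% in cluster 7, led by Gucy1a3 and Pf4, and 3.98% in cluster 3, led by Kpna2, Ube2c and Aurka. In GMP it ranged between 2.87% in cluster 8, led by Prss34 and Car1, and 3.76% in cluster 1, led by Ung, Ly86 and Ctss. In CMP it ranged between 2.57% in cluster 3, led by Csrp3 and Fcer1a, and 3.56% in cluster 2, led by Ly6c2 and Slpi. In LSK it ranged between 2.03% in cluster 7, led by Cldn5 and Vwf, and 2.99% in cluster 4, led by Esco2 and Tk1. Among LSK clusters of that size, cluster 4 alone lay above the lowest cluster of MEP. The lowest cluster was the lowest for 60 of 75 members in MEP, 51 of 74 in GMP, 62 of 74 in CMP and 54 of 74 in LSK. That cluster was picked by the summed share of the same members, and no count over all genes was made. The lowest clusters of MEP, GMP and CMP also had the fewest UMIs per cell among these clusters, with medians of 4689, 4987 and 3525.5.

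**Figure D3:**
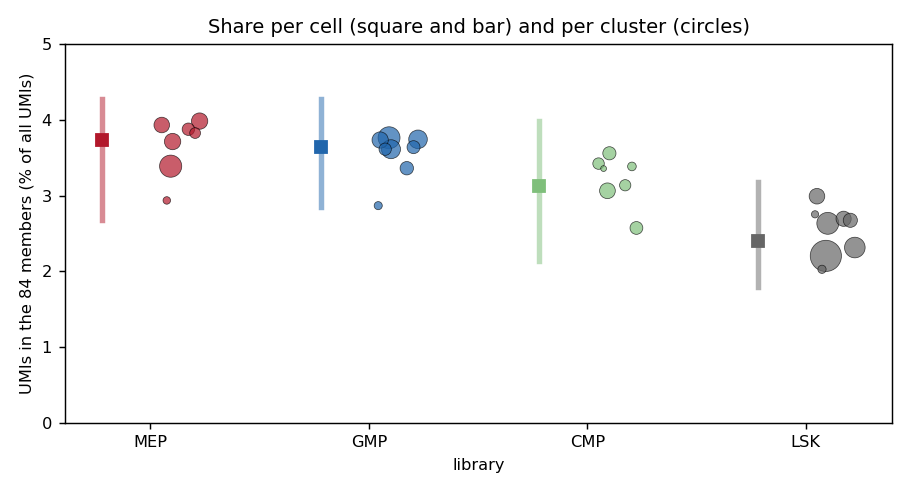
Share of UMIs in the 84 members, in percent, by library. Squares are the medians over cells (3.73% in MEP, 3.64% in GMP, 3.13% in CMP and 2.40% in LSK), vertical bars run between the 5th and 95th percentiles of cells, and circles are clusters of 100 or more cells with area in proportion to their number of cells.

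Members varied among themselves in how far they followed these clusters. The ratio of the highest to the lowest cluster had a median over members of 0.47 on the log2 scale in MEP, 0.50 in GMP, 0.57 in CMP and 0.66 in LSK. Over a 2-fold ratio lay 3 members in MEP, 2 in GMP, 4 in CMP and 10 in LSK. No such count was made over all genes. Cox6b2 was among these members in all 4 libraries. Cox5a was the widest member in LSK, with 656 CPM in cluster 5 and 224 in cluster 7, and next was Ndufa4. Cox4i1 was the most even member in LSK, between 836 and 946 CPM.

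Cells with RNA of proliferation genes had more of their UMIs in members, in all 4 libraries. A UMI of Mki67 or Top2a, genes of dividing cells, was found in 85.7% of MEP, 78.4% of GMP, 59.1% of CMP and 44.1% of LSK cells. Cells with such a UMI had 3.81% of UMIs in members in MEP, 3.67% in GMP, 3.31% in CMP and 2.70% in LSK, against 3.29%, 3.58%, 3.08% and 2.33% in cells without. The difference was 0.21 on the log2 scale in MEP and LSK, 0.11 in CMP and 0.04 in GMP. Cells with more UMIs are more likely to show one of these genes. In cells without such a UMI alone, the summed level was 0.50 higher in MEP than in LSK, 0.62 higher in GMP and 0.40 higher in CMP. In those cells MEP over GMP was -0.12, against 0.04 in all cells.

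The 13 subunits encoded in the mitochondrial genome did not follow the nuclear-encoded ones. They took 3.31% of UMIs in MEP, 3.03% in GMP, 3.16% in CMP and 3.21% in LSK. Nuclear-encoded UMIs per mitochondrially encoded UMI were thus 1.14 in MEP, 1.21 in GMP, 1.02 in CMP and 0.792 in LSK, a ratio that no scaling changes. Single transcripts differed in both directions. mt-Nd1, of complex I, had 3561 CPM in MEP, 2560.4 in GMP, 2672 in CMP and 1953 in LSK, whereas mt-Co1, of complex IV, had 3358, 4109, 3883 and 5934 CPM. By the 2-fold rule 0 of 12 tested differed in MEP or GMP over LSK. The backgrounds were 13.5% higher and 16.4% lower in MEP, and 7.49% and 13.3% in GMP. At 1.5-fold mt-Nd1 was called higher and mt-Co1 lower in MEP than in LSK. At the same fold mt-Nd3 was lower in GMP, and mt-Co1, mt-Atp8 and mt-Nd4l were lower in CMP. At 2-fold 1 of 12, mt-Atp8, was lower in CMP than in LSK, with 121 CPM in CMP and 289 in LSK (background 6.12%). That call was lost with TMM (-0.94) and median-of-ratios scaling (-0.88). Mitochondrial RNA also marks damaged cells, and cells over 10% had been left out.

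In MEP over GMP the direction of members of complexes I, III and V differed by their place in the complex, a split chosen after the values were seen. Complexes II and IV were not split, so the pattern is not read as general. In complex IV, Cox4i1, Cox5a and Cox5b were at -0.02, -0.10 and 0.07 in MEP over GMP. Among members that reached 50 CPM in either library, 6 of 7 complex I core subunits were above 0, with a median of 0.31, against 10 of 29 other members with a median of -0.14. In complex III the 3 core members were all above 0 with a median of 0.39, and 3 of 5 others were, with a median of 0.03. In complex V the 3 subunits of the head were above 0 with a median of 0.23, and 5 of 12 others were, with a median of -0.03. Among the core members of complexes I, III and V, only Ndufs8 was below 0, at -0.88. Transcript length moved with this split. The median longest coding transcript was 1623 nt for the core and 861 nt for the other members of complex I, 1653 and 535 nt in complex III, and 1916 and 781 nt in complex V. Other genes with a coding transcript that reached 50 CPM in either library were split by length, leaving out ribosomal protein and mitochondrially encoded genes. Their median MEP over GMP ratio was 0.02 for 312 genes with transcripts up to 1000 nt and 0.26 for 2552 longer ones. Among the members it was -0.09 for 43 with transcripts up to 1000 nt and 0.17 for 32 longer ones. The part of transcript length in the difference between core and other members was not tested.

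**Figure D4:**
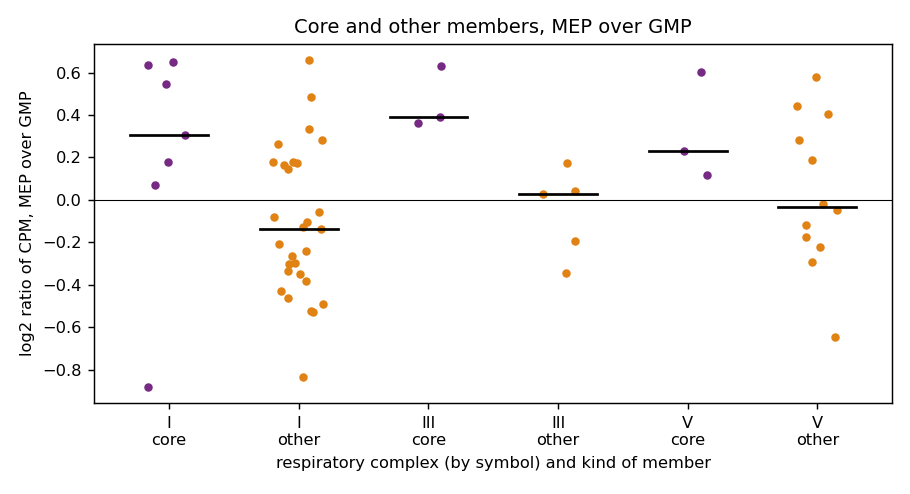
Log2 ratio of CPM in MEP over GMP for members of complexes I, III and V that reached 50 CPM in either library, split into core members (purple) and others (orange). Bars are medians, at 0.31 and -0.14 in complex I, 0.39 and 0.03 in complex III and 0.23 and -0.03 in complex V.

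Other genes of the pathway were read from lists. Among 7 subunits and carriers outside the symbol rule that reached 50 CPM, 4 were called 2-fold higher in MEP than in LSK, where the background was 13.5%. Cyc1, the cytochrome c1 of complex III, had 529 CPM in MEP, 281 in GMP, 229.6 in CMP and 166 in LSK. Atpif1, an inhibitor of the ATP synthase, had 2157 CPM in MEP, 1136 in GMP, 1086 in CMP and 789.6 in LSK. Cycs, cytochrome c, had 662 CPM in MEP, 855 in GMP, 544 in CMP and 267 in LSK and was past the rule in all 3 gates over LSK, though in CMP at 0.98 with the total taken without ribosomal protein and mitochondrially encoded genes. Ndufab1, a carrier protein in complex I, had 664 CPM in MEP, 458 in GMP, 404 in CMP and 289.9 in LSK. Etfb, which brings electrons from fatty acid oxidation, set GMP apart, with 301 CPM in MEP, 817 in GMP, 399 in CMP and 305 in LSK. It was called higher in GMP than in LSK and lower in MEP than in GMP.

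Of 16 genes of the tricarboxylic acid cycle and pyruvate dehydrogenase, 5 were called higher in MEP than in LSK, and 0 of 12 in GMP and 0 of 13 in CMP (backgrounds 13.5%, 7.49% and 2.72%). Cs, citrate synthase, had 90.6 CPM in MEP, 45.1 in GMP, 43.5 in CMP and 38.0 in LSK. Mdh2, malate dehydrogenase, had 642, 431, 397 and 280.2 CPM in MEP, GMP, CMP and LSK, and Idh3a, a subunit of isocitrate dehydrogenase, had 183, 127, 102 and 77.0 CPM. Dlst and Dlat were the other 2. In MEP over GMP Cs and Dlst were called higher in MEP (1.01 and 1.26; background 12.1%), the call for Cs being at the edge of the rule and lost with TMM scaling (0.996). In cells without an Mki67 or Top2a UMI, Cs was at 0.75 in MEP over GMP, and Dlst and Dlat were at 0.88 and 0.78 in MEP over LSK. The assembly factors, which build the complexes but are not part of them, gave 2 of 17 higher in MEP than in LSK, Ndufaf4 (1.34) and Ndufaf6 (1.03, and 0.98 in cells without an Mki67 or Top2a UMI), and 0 of 15 and 0 of 14 in GMP and CMP.

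Only 3 of 13 regulators of mitochondrial biogenesis reached 50 CPM in MEP or LSK. Yy1, a transcription factor, had 127 CPM in MEP, 57.5 in GMP, 73.3 in CMP and 120.1 in LSK, and was called lower in GMP than in LSK and higher in MEP than in GMP. The first call was lost with TMM (-0.62) and median-of-ratios scaling (-0.52) and in cells without an Mki67 or Top2a UMI (-0.91). Tfam, which packages and transcribes mitochondrial DNA, had 87.8 CPM in MEP, 46.9 in GMP, 58.8 in CMP and 72.1 in LSK and did not pass the 2-fold rule. Ppargc1a, a coactivator known for driving mitochondrial biogenesis and named here after its values were seen, had 0 UMIs in MEP and GMP, 2 in CMP and 153 in LSK. With the floor of 3 UMIs per library, its level of 2.04 CPM in LSK was 54.5-fold higher than in MEP and 49.8-fold higher than in GMP. These ratios leave out the counting error of the LSK UMIs and are not lower limits.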

How the data were processed

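The values the authors deposited are counts of UMIs for each gene in each barcode, not normalized, from the 10x Genomics 3' assay. The mm10 build is named in the submitters' processing notes, together with Seurat 2.3.0, Cell Ranger 2.0.0 and CASAVA 1.8.2. The LSK file holds unfiltered barcodes. Those of 2110 UMIs or more were taken as cells, a level set by the 10882 cells stated for that gate, and a tie gave 10883. A cell was kept if it had 500 genes or more and no more than 10% of its UMIs were mitochondrial. Counts were summed per library and scaled to CPM. Levels carry exact Poisson intervals, ratios exact conditional binomial intervals and shares Clopper-Pearson intervals, all at 95%, and all cover counting error alone. No test was made, since each gate had 1 library, and a count under 3 was set to 3 in ratios. UMIs were not normalized further, so a level is relative to the other RNA of the library, and highly expressed lineage genes lower all other levels.

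Doublets were scored per library by the share of simulated pairs among nearest neighbours, written out in place of the Scrublet package that had been planned. The highest scores, 0.8% per 1000 cells, were kept in the sums and left out of the clusters. Clusters (2000 variable genes, 30 components, 15 neighbours, Leiden resolution 0.5) are called by number. The fold rule was run on simulated data with 200 genes changed 3-fold. This cannot show its error in the present data, where each gate had 1 library. Named were core members, isoforms, the extremes of each complex and contrast, and genes past the 2-fold rule; 1 core member is not reported here by name. The members and lists were chosen with earlier results of these data known. The core and length splits, the medians over genes of 50 CPM or more and the naming of Ppargc1a came after the values were seen. Alternatives covered cell filters, doublets, scaling (median-of-ratios, TMM in edgeR 4.0.16), cells without an Mki67 or Top2a UMI, and thinning. Promoters are from RefSeq (GRCm38.p6) and positions from GENCODE M21. Windows whose first transcribed bases were in no GENCODE transcript of the gene are not printed. Python 3.11.15, SciPy 1.17.1 and leidenalg 0.10.2 were used.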

Additional observations from a re-analysis of the deposited data

Results flagged for a closer look

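In the LSK file, barcodes below the level taken as cells were outside the comparisons and still held members. These 508787 barcodes had 22122930 UMIs, of which 2.466% were in the 84 members, close to the 2.54% in LSK cells. Among the 426182 barcodes with 1 to 100 UMIs the share was 2.52%. What these barcodes hold was not tested.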

How the results depend on the processing

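Direction over LSK held for the summed level and the median member under all 10 alternative cell sets and scalings, in MEP, GMP and CMP, and scaling set the size. Summed log2 ratios were, with TMM and median-of-ratios factors, 1.01 and 1.09 in MEP over LSK, 0.97 and 1.07 in GMP, 0.67 and 0.73 in CMP, and 0.033 and 0.022 in MEP over GMP. A total without ribosomal protein and mitochondrially encoded genes gave 0.51, 0.45, 0.31 and 0.068, and a total without the 50 highest genes 0.52, 0.48 and 0.33 over LSK. LSK barcodes of 3000 or more UMIs gave 0.57, 0.52 and 0.35, and thinned cells and cells weighed equally both gave 0.58, 0.57 and, in MEP over GMP, 0.012. With doublets left out MEP and GMP over LSK were 0.57 and 0.52. Cells without an Mki67 or Top2a UMI, called marker-negative below, gave 0.50, 0.62, 0.40 and, reversed, -0.12 in MEP over GMP. Marker-negative cells can still include cycling cells.

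The median member (0.61, 0.55 and 0.36 over LSK) was 1.05, 0.995 and 0.67 with TMM and 1.13, 1.09 and 0.73 with median-of-ratios. It was 0.56, 0.62 and 0.41 in marker-negative cells. Over genes of 50 CPM or more, an alternative chosen after seeing the data, it was 0.63 in MEP. In MEP and GMP it was 0.64 and 0.58 with equal cells, 0.56 and 0.47 without ribosomal and mitochondrial genes, and 0.56 and 0.50 without the 50 highest. In MEP over GMP its 0.01 reversed to -0.028 with thinned cells, -0.028 with equal cells and -0.16 in marker-negative cells.

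Counts 2-fold higher became, in MEP (11), 41 with TMM and 45 with median-of-ratios, where 33.3% and 38% of all genes were called. In GMP (5) they were 38 and 46 (all genes 21.9% and 27.3%), 9 with thinned, equal or marker-negative cells, and 3 with either reduced total. In CMP (1) they were 4 and 8 (all genes 8.32% and 10.1%), and 2 with thinned, equal or marker-negative cells or no CPM minimum. Counts 2-fold lower (0) became 1 with a 10 CPM minimum and 5 with none in MEP, 1 with none in GMP, and 3 with none in MEP over GMP. Counts 1.5-fold higher became 63 in MEP with median-of-ratios (all genes 60.2%). With TMM and median-of-ratios they were 65 and 71 in GMP (46.6% and 53.1%) and 46 and 53 in CMP (33.4% and 39.9%). Marker-negative cells gave 16 in CMP. In MEP over GMP (6) thinned cells gave 3 and marker-negative cells 1. Counts 1.5-fold lower were 0 with TMM and median-of-ratios in MEP (2) and GMP (1). With marker-negative cells they were 1 in MEP, 1 in CMP (0) and 5 in MEP over GMP (3). Either reduced total gave 1 in CMP, a 10 CPM minimum 2 in GMP, and no minimum 7 in MEP, 4 in GMP and 6 in MEP over GMP. Shares of all genes were counted for TMM and median-of-ratios scaling only. Counts under the other cell sets, totals and CPM minimums are therefore not read as particular to the members. The fall below 2-fold was seen for Ndufb9 (0.93), Ndufs7 (0.97) and Ndufb10 (0.81) in marker-negative cells. It was also seen for Ndufb10, Ndufb5 and Uqcrq, within 0.94 to 0.99, under other settings.

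At Leiden resolution 1 the highest cluster was 4.01% in MEP, 3.81% in GMP and 3.62% in CMP, and the lowest in CMP 2.54%. Thinned medians per cell were 3.65% in MEP, 3.60% in GMP and 3.10% in CMP. The other pathway genes were recomputed under the same settings, a step chosen after seeing the data. The cause of these shifts was not tested beyond the scaling itself. No paired analysis was possible because each gate has 1 library and replicate numbers only name samples. CMP had the fewest UMIs, and its levels near 1 CPM carry the widest counting intervals.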

Other observations

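Clusters of fewer than 100 cells were left out of the ranges in the text. The lowest share of UMIs in members over all clusters was 1.53% in GMP cluster 10, 35 cells led by Camp, Ngp, Ltf and Ly6g, genes of neutrophil granules. In these cells mitochondrially encoded subunits were low too, at 1.03% of UMIs. GMP cluster 9, 42 cells led by Ear1, Prg2 and Epx, genes of eosinophils, was at 3.12%. The highest was 4.06% in MEP cluster 8, 49 cells led by Mtpap, Plrg1 and Idi1, with 1.95% of UMIs in mitochondrially encoded subunits. LSK cluster 9, 54 cells led by Car1, Ermap and Atp1b2, was at 3.09%, above every LSK cluster of 100 or more cells.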
